A study of Homo sapiens with 2 samples.

Results

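Most of the genes described here encode core proteins of the spliceosome. They were compared between RKO cells in which BCLAF1-L, the long form of BCLAF1, was targeted by a hairpin and cells with a control hairpin. RKO is a widely used line from a human colon cancer. They were taken by name: every gene whose single symbol in the array annotation begins with SNRP, SF3A, SF3B, PRPF, U2AF, or LSM followed by a digit. That rule used no measured value and gave 49 of the 19775 genes with a probe set of 1 symbol, read by 101 probe sets. The set itself was chosen with earlier results of these data known. Among the 49 are 6 LSM genes that act outside the ring on U6 and the non-coding SNRPF-DT, which are counted as core genes below. A gene's value is that of its brightest probe set, by the mean of both arrays.

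The study held 2 Affymetrix arrays, 1 of total RNA from RKO cells infected with a retrovirus for sh-Luci (a hairpin against luciferase) and 1 from RKO cells infected with a retrovirus for sh-BCLAF1-L. Both cultures had a medium change 24 h after infection and were selected with puromycin at 2 ug/ml for 72 to 96 h, so both carried a hairpin and resistance to the drug. The lines were made by selection of infected cells, 1 hairpin against BCLAF1 was measured, and lower BCLAF1 cannot be told apart from other effects of that hairpin. With 1 array a group there is no spread between cultures and no p-value, and a difference between the arrays cannot be told apart from a difference between the hairpins.

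Splicing removes introns from pre-mRNA on a machine that is rebuilt on every intron. U1 snRNP binds the start of the intron, U2AF and then U2 snRNP bind its end and branch point, and the U4/U6.U5 tri-snRNP joins before the complex is rearranged into its catalytic form. Most snRNPs share a ring of Sm proteins, and U6 carries a related ring of LSM proteins. BCLAF1, a nuclear protein with stretches rich in arginine and serine, has been reported in complexes with core splicing factors, among them PRPF8, U2AF1, U2AF2 and SF3B1.

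BCLAF1 itself read 2505 in the sh-Luci cells and 945 in the sh-BCLAF1-L cells on its brightest probe set, 2.65-fold lower, and all 6 of its probe sets were lower. The biotin spike-ins, which are added in equal amount to each array, were higher on the sh-BCLAF1-L array on 18 of 18 probe sets, by a median of 0.20 (log2). The ratio of end to start probe sets, which reads RNA integrity and labelling, was 3.41 and 3.81 for ACTB and 1.38 and 1.49 for GAPDH on the sh-Luci and sh-BCLAF1-L arrays. Of 6 epithelial markers, 4 were detected, among them EPCAM (477 and 472), while CDH1 and KRT19 were not. KRT18, a keratin of simple epithelia, read 979 and 674 (-0.54). The summed intensity of 7 fibroblast markers was 894 and 919, of 5 blood cell markers 314 and 303, and of 5 endothelial markers 383 and 395. Detected were 5 of the 7 fibroblast, 2 of the 5 blood cell and 2 of the 5 endothelial markers. PTPRC, CDH5 and KDR were below detection on both arrays. COL1A1 read 355 and 397, POSTN 221 and 174 (-0.34) and CD3E 135 and 111 (-0.27). The detected endothelial markers were VWF, at 177 and 194, and PECAM1, at 119 and 119. The part of these control and marker values in the differences below was not tested.

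The core spliceosome genes differed little between the cultures. Of the 49 genes, 48 were detected, which means that the mean of both arrays was at least 63.7, the 40th percentile over the probe sets of the array. Their median difference, sh-BCLAF1-L minus sh-Luci on the scale log2(intensity + 1), was -0.026 (quartiles -0.096 and 0.018), against 0.019 over all 14507 detected genes. None was 1.5-fold or more apart in either direction on its brightest probe set, where 0.634% of all detected genes were. At 1.2-fold, 4 were lower (8.33%, against 4.26% of all detected genes) and 1 was higher (2.08%, against 6.86%). Each of these counts is of the same order as the background, so neither is a result about the spliceosome.

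In 34 of the 48 genes (70.8%) the arrays were within 1.1-fold of each other, as in 62.5% of all detected genes. A negative difference was found in 30 of 48 (62.5%), against 45% of all detected genes. Without the non-coding SNRPF-DT it was found in 29 of 47, and the median was -0.026. The differences had an SD of 0.13 across the 48 genes and 0.17 across all detected genes. The SD between probe sets within a gene was 0.14 over 24 core spliceosome genes and 0.16 over 6752 genes, so most differences were smaller than the disagreement between probe sets of a gene. The probe sets of these genes were also bright, with 33 of 48 above the 75th percentile of detected genes. Intensity depends on the probes as well as on the transcript, and is not used here to rank genes by mRNA level.

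**Figure D1:**
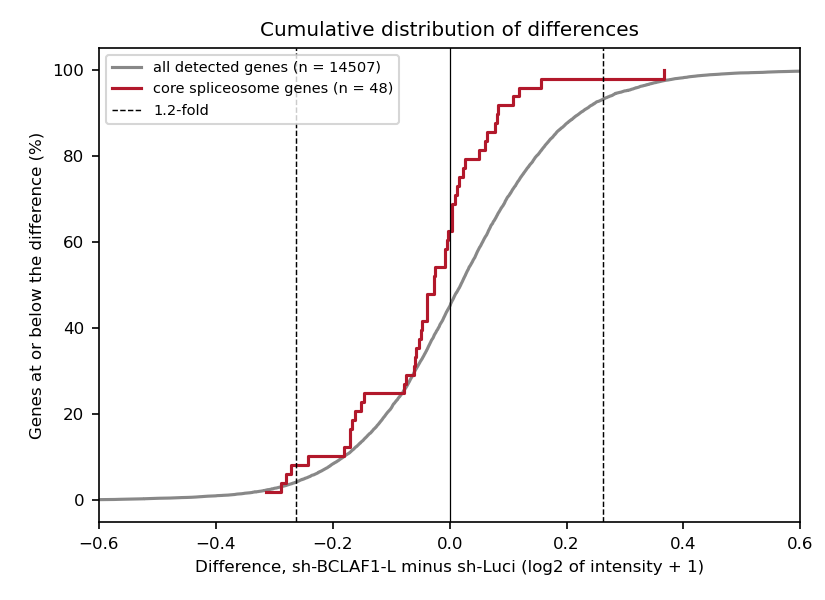
Cumulative share (%) of detected genes at or below each difference (log2 of intensity + 1, sh-BCLAF1-L minus sh-Luci, 1 array each), for the 48 core spliceosome genes (red) and all 14507 detected genes (grey), with dashed lines at 1.2-fold. The red curve lies to the left of the grey one near 0, with medians of -0.026 and 0.019, and both are narrow.

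The genes past 1.2-fold were PRPF31, SF3B4, SNRPA1 and PRPF8, which were lower, and U2AF1L4, which was higher. PRPF31, a U4/U6 protein that tethers the tri-snRNP together, read 1067 in sh-Luci and 857 in sh-BCLAF1-L cells, 1.24-fold lower. Its second probe set went the same way, from 173 to 129 (-0.42), and a probe set below detection read 56.2 and 67.5. PRPF31 was the lowest of the detected core genes, with 2.38% of all detected genes lower still.

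SF3B4, a subunit of the SF3B complex that contacts the pre-mRNA near the branch point, read 1229 and 1007, 1.22-fold lower, on its single probe set. PRPF8, the large U5 protein that forms the cavity around the catalytic RNA, read 1506 and 1247, 1.21-fold lower, also on a single probe set. For these 2 genes no other probe set could check the direction.

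SNRPA1, a protein of U2 snRNP that binds its RNA together with SNRPB2, read 3012 and 2481 on its brightest probe set, 1.21-fold lower. Its other detected probe sets went the other way, with readings of 1049 and 1111 on one and 477 and 504 on the next. One below detection read 46.8 and 40.9, and the 4 together had a median of -0.054. SNRPA1 was the only detected core gene whose brightest probe set passed 1.2-fold while other detected ones had the opposite sign.

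U2AF1L4, a paralog of the small U2AF subunit, read 119 and 153, 1.29-fold higher, on its only probe set. It was the highest of the core genes, and 97.4% of all detected genes had a lower difference. Its intensity was near the dim end, at the 28.5th percentile of detected genes.

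All 4 lower genes were read by probe sets whose names end in _s_at or _x_at, which mark probes that can match several transcripts or other genes. Over the 89 detected probe sets of the core genes, 7 were at least 1.2-fold lower, all among the 36 of that kind (19.4%), against 5.27% of all such detected probe sets on the array. None of the other 53 was, where 4.92% of all others were. Without these probe sets 35 core genes remained detected, none was 1.2-fold lower, and the median was -0.0024. The 4 lower genes had no detected probe set outside the _s_at or _x_at kind, so they dropped out and were not read a second time. Genes read by _s_at or _x_at probe sets had a median of -0.068 (22 genes, 19 below 0), against 0.011 for the rest (26 genes, 11 below 0). Over all detected probe sets of the array, 47.9% of the _s_at or _x_at kind were below 0, with a median of 0.0073. Of the others 45.1% were below 0, with a median of 0.020. Which transcripts those probes match was not examined.

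The bases before the start of these 5 genes are printed because these are the members that stood furthest from 0, and to show what their start regions share. Each window is the 250 bases before the RefSeq start, 5′ to 3′ on the gene's strand (RefSeq, GRCh38.p14). Both strands were searched for 6 motifs, matches are in capitals, and no marked match overlaps another. The NF-Y box was searched as CCAAT. The core bound by factors of the ETS family was searched as CCGGAAG. The GC box bound by SP factors was searched as GGGCGG. The E-box bound by MYC and its relatives was searched as CACGTG. The TATA box at core promoters was searched as TATAAA. The cyclic AMP response element was searched as TGACGTCA.
PRPF31, chr19:54115504-54115753, plus strand: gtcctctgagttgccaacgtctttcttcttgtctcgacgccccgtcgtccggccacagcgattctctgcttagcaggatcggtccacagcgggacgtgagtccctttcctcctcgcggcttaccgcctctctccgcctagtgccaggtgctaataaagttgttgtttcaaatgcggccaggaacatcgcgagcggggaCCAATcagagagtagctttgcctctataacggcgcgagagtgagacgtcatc
SF3B4, chr1:149927804-149928053, minus strand: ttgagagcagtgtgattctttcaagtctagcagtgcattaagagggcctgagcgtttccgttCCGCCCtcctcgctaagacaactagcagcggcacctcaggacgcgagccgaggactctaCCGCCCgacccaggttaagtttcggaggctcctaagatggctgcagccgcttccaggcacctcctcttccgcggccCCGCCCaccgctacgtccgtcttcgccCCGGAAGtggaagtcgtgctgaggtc
SNRPA1, chr15:101295249-101295498, minus strand: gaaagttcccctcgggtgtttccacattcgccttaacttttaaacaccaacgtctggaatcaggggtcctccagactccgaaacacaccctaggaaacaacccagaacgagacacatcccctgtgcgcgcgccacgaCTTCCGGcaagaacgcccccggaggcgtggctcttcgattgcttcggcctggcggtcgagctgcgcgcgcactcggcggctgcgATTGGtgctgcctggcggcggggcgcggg
PRPF8, chr17:1684868-1685117, minus strand: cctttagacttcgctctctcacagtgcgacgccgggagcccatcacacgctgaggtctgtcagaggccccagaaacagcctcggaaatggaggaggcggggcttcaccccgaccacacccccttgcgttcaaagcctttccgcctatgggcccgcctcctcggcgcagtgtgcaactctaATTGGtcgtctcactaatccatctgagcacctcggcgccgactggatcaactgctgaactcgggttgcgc
U2AF1L4, chr19:35745419-35745668, minus strand: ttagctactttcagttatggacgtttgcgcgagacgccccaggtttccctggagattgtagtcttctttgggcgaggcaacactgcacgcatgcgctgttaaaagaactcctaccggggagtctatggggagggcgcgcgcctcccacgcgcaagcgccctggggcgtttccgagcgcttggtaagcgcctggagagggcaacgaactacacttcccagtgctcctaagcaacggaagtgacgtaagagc
A CCAAT match lay in the windows of PRPF31, SNRPA1 and PRPF8, with its first base 52, 29 and 70 bases before the start. An ETS core lay in the windows of SF3B4 and SNRPA1, and SF3B4 held 3 GC boxes. The U2AF1L4 window held none of the 6 motifs, which says only that these letters are not in it.

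A RefSeq window was found for 42 of the 49 genes, 53 windows in all. The ETS core was in 20 of the 53 (37.7%), against 8.52% of all 35116 windows and 10.7% of the 22199 windows of protein-coding genes. The shares for the NF-Y box (34.0%, against 32.7% of protein-coding windows) and the GC box (49.1%, against 53.7%) were closer to those of other genes. Of the 53 windows, 2 held the E-box (7.37% of protein-coding windows), 1 the TATA box (9.00%) and 0 the cyclic AMP response element (2.01%). ETS cores were in the windows of 8 of 10 U2 snRNP genes and 4 of 7 Sm core genes that had a window, and in 0 of 4 LSM genes outside the U6 ring. Detected genes with an ETS core had a median difference of -0.038 (18 genes, 11 below 0) and those without one of -0.0072 (23 genes, 12 below 0). Their ranges overlapped, from -0.29 to 0.11 and from -0.31 to 0.37.

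The Sm core, the ring of proteins that is loaded onto U1, U2, U4 and U5 RNA, was read with nearly equal intensity on both arrays. Its 7 detected members had a median of -0.0072 and ran from -0.15 to 0.02, with 0 past 1.2-fold. SNRPD2 read 4622 and 4637, and SNRPE 4411 and 4424. SNRPF read 3177 and 3161, and SNRPD3, the highest of the class, 2527 and 2555. The readings of these 4 genes differed by under 1.1-fold.

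SNRPB, which gives the Sm proteins B and B', was the lowest of the class at 3859 and 3484 (-0.15), and its second probe set read 2789 and 2374 (-0.23). SNRPD1 (2436 and 2314) and SNRPG (4120 and 3984.5) lay between. SNRPN, the tissue-restricted relative of SNRPB expressed from the imprinted Prader-Willi region, was the 1 member that was not detected, at 5.02 and 5.13. A further 11 probe sets carry a symbol that meets the naming rule among several symbols and stayed out of the gene values. Of these 4 were detected, none above 97.9 on either array.

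The U1 snRNP class held SNRPA and SNRPC, which are particle proteins, and PRPF39 and PRPF40B, relatives of yeast U1 proteins. Its 4 members had a median of 0.035 and spread from -0.16 to 0.16. SNRPC, which stabilises the pairing of U1 with the splice site, read 2593 and 2795 (0.11). SNRPA, which binds a stem loop of U1 RNA, read 1048 and 1019.98 (-0.04). PRPF39 was the lowest, at 573 and 512, and the dim PRPF40B the highest, at 87.8 and 97.9. Both directions were present within the class and each gene had 1 probe set.

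U2 snRNP, which recognises the branch point through SF3A and SF3B, was the largest class. Its 11 members had a median of -0.052, with 7 below 0 and 2 at least 1.2-fold lower, SF3B4 and SNRPA1. SF3B1, the branch-site clamp that is mutated in several blood cancers, read 3109 and 3118, and its 5 probe sets ran from -0.11 to 0.11. SF3B6, the SF3B subunit that lies by the branch point, read 2823 and 2815, and SF3B5 read 2737 and 2781. SF3B2 was the highest of the class, at 1244 and 1287 (0.05), so 4 of the 6 SF3B genes lay within 1.1-fold and the lower readings were those of SF3B3 and SF3B4.

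SF3B3, the scaffold of the SF3B complex, read 1487 and 1321 (-0.17), with -0.26 on its other probe set. SF3A3 read 784 and 706 (-0.15), SF3A1 read 1348 and 1292 with all 4 of its probe sets between -0.07 and -0.02, and SF3A2 read 332 and 334. SNRPB2, which partners the SNRPA1 protein on U2 RNA, read 2991 and 2885 (-0.05). The 3 SF3A genes had a median of -0.062.

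U2AF, the dimer that binds the polypyrimidine tract and the end of the intron, had members and probe sets on both sides of 0. U2AF1, the small subunit, read 2950 and 3003 (0.03), but its 4 probe sets ran from -0.24 to 0.18. U2AF2, the large subunit, read 1145 and 1009.97 (-0.18), while its second detected probe set read 305 and 331 (0.12). Its 2 other probe sets were below detection, at 49.6 and 57.3 on one and 24.9 and 38.7 on the next. The median was 0.16 over all 4 and -0.032 over the detected ones, which differed in sign.

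The tri-snRNP proteins had the lowest median of the classes with several genes, -0.17 over 5 members, with 4 below 0 and 2, PRPF31 and PRPF8, at least 1.2-fold lower. PRPF3, a U4/U6 protein, read 198 and 176 (-0.17) on its 1 probe set. PRPF6, which bridges U5 and U4/U6, read 592 and 569 (-0.06), and its second probe set read 497 and 551 (0.15). PRPF4, the partner of PRPF3, was the highest of the class, at 1131 and 1196 (0.08), with 426 and 453 on its other probe set. Only PRPF3 and PRPF4 kept a detected probe set when those named _s_at or _x_at were left out, and the median of these 2 was -0.043.

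The LSM ring of U6, LSM2 to LSM8, protects the end of U6 RNA and helps it pair with U4. Its 7 members had a median of -0.026 with 0 past 1.2-fold on their brightest probe sets. LSM5, the brightest, read 2300.3 and 2258, and LSM6 read 1239 and 1237. LSM2 was the lowest, at 411 and 365 (-0.17), and LSM3 the highest, at 1638 and 1730 (0.08).

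Dimmer probe sets of this ring spread more. LSM5 differed by -0.44 on a probe set that read 261 and 192, LSM4 by -0.33 on one that read 904 and 721, and LSM8 by 0.64 on one that read 59.3 and 92.8. Those of LSM5 and LSM4 are of the _s_at kind. The brightest probe sets of LSM4 and LSM8 read 1390 and 1345, and 1197 and 1208, and LSM7 read 1137 and 1116.

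The proteins that activate the spliceosome or act at the catalytic steps had 4 members with a median of 0.028. PRPF19, the ubiquitin ligase of the PRPF19 complex, read 596 and 593 (-0.01). PRPF38B was the highest, at 421 and 458 (0.12), with 181 and 213 on its second probe set, and PRPF38A the lowest, at 529 and 508 (-0.06). The other probe sets of PRPF38A read 555 and 482 (-0.20) on one and 443 and 450 (0.02) on the next. PRPF18, a factor of the last catalytic step, read 446 and 466.

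LSM proteins outside the U6 ring had 6 members with a median of -0.031, between -0.08 and 0.08 on their brightest probe sets. LSM14A, a protein of cytoplasmic RNA granules, was the brightest and the lowest, at 1457 and 1379, whereas its other probe sets both differed by 0.07. LSM1, which replaces LSM8 in the cytoplasmic ring of mRNA decay, read 1354 and 1319. LSM11, a U7 snRNP protein of histone mRNA processing, was the highest, at 265 and 281 (0.08), and its partner LSM10 read 349 and 340.0 (-0.04). LSM12 read 1133 and 1114, with 664 and 568 (-0.22) on its second probe set. LSM14B read 89.5 and 93.3, and its 4 detected probe sets ran from -0.20 to 0.06.

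**Figure D2:**
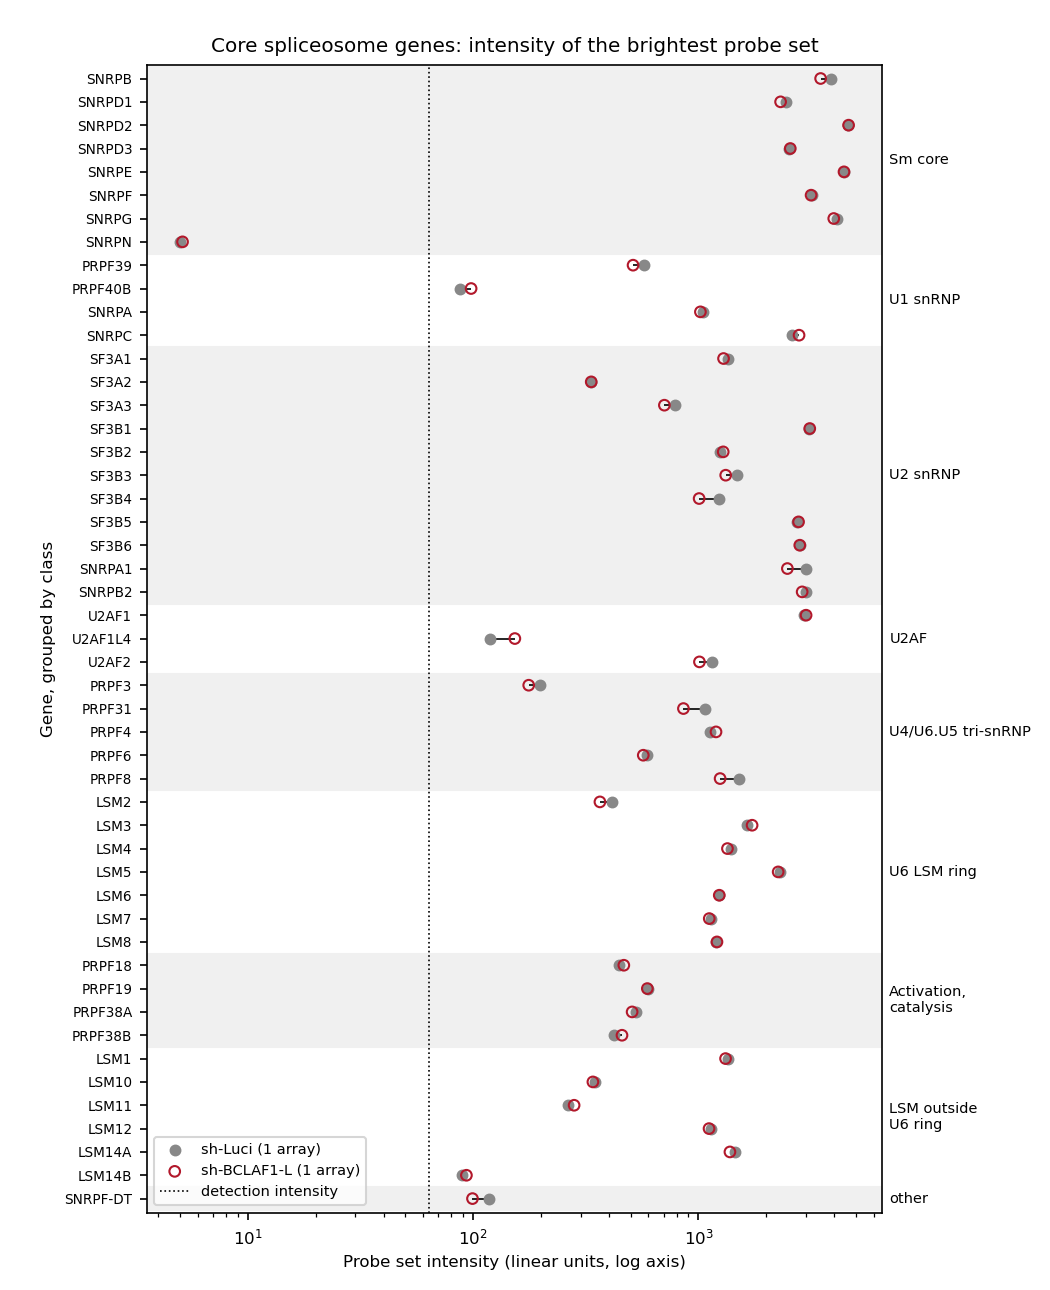
Intensity of the brightest probe set (log axis, linear units) of each of the 49 genes, grouped by class, on the sh-Luci array (filled grey) and the sh-BCLAF1-L array (open red), with the detection intensity of 63.7 dotted. Most pairs of points overlap, SNRPN alone lies below detection, and the 5 widest gaps among the detected genes are those of PRPF31, PRPF8, SF3B4, SNRPA1 and U2AF1L4.

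Of the 48 detected genes, 24 had several detected probe sets and 24 had 1. In 14 of the 24 genes (58.3%) all detected probe sets had the same sign, 8 lower and 6 higher, against 45.0% of 6752 genes. The second-brightest probe set had the sign of the brightest in 17 of 24. Across those 24 genes the differences on both correlated with Pearson's r = 0.45, a description over genes that share the same 2 arrays.

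**Figure D3:**
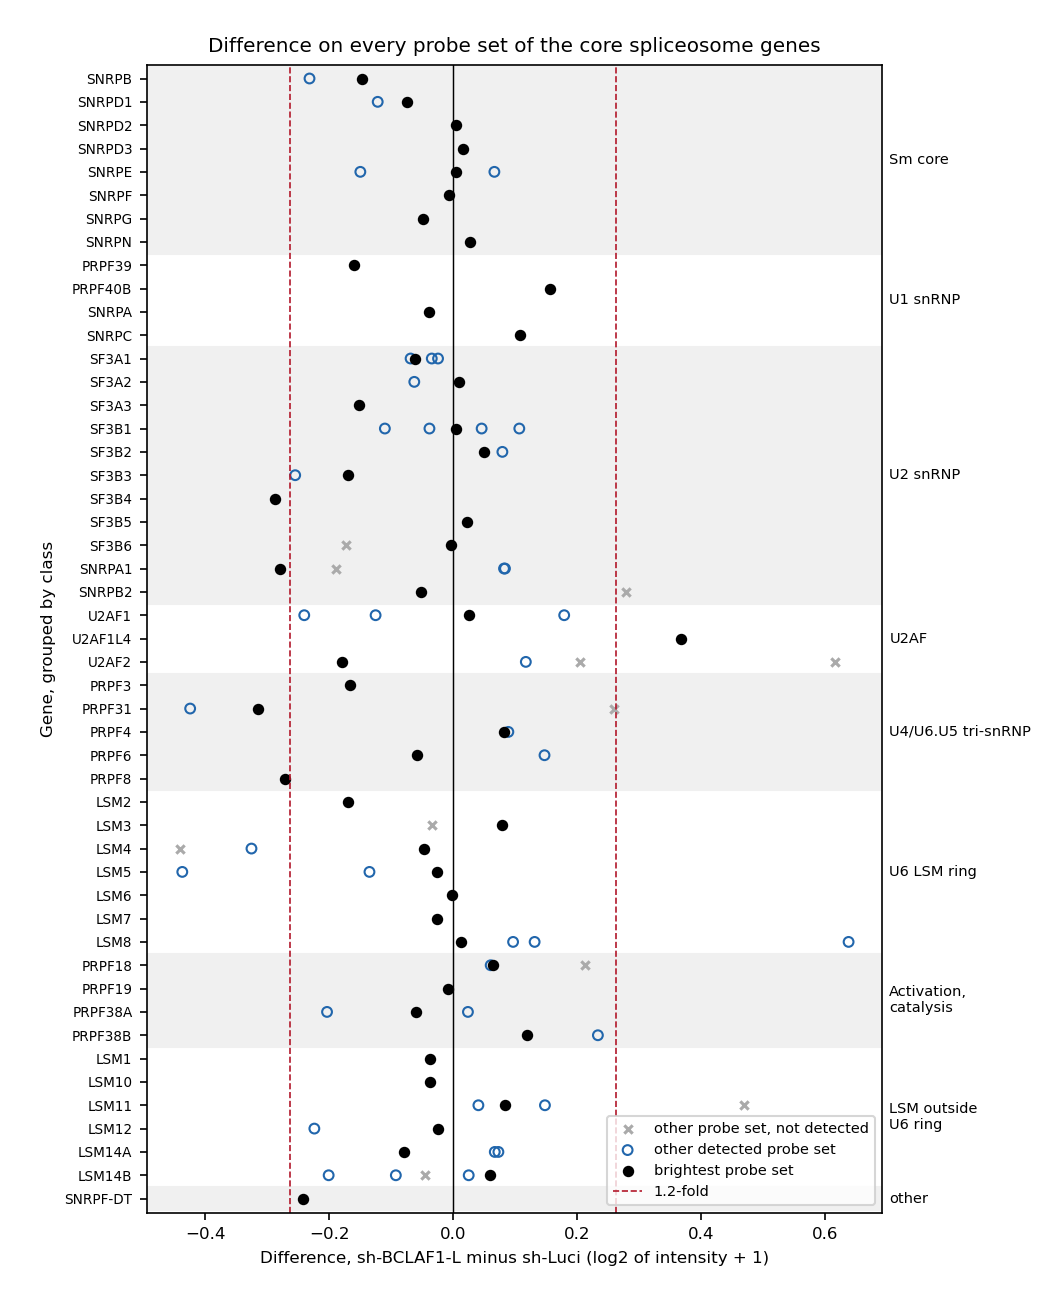
Difference (log2 of intensity + 1, sh-BCLAF1-L minus sh-Luci) on each of the 101 probe sets, by gene and class; black points are the brightest probe set of a gene, open blue circles other detected ones and grey crosses undetected ones, with dashed lines at 1.2-fold. The 4 black points beyond the left line are PRPF31, SF3B4, SNRPA1 and PRPF8, and the 1 beyond the right line is U2AF1L4.

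The rule also took SNRPF-DT, a non-coding transcript that starts 113 bases from SNRPF on the opposite strand. It read 118 and 99.3 (-0.24), 1.18-fold lower, while SNRPF differed by -0.01. It lay just short of 1.2-fold, and PRPF8 at -0.27 just past it. Counting this pair, 11 pairs of a member and a neighbour with opposed starts had both genes detected, and the differences had the same sign in 4 and opposite signs in 7. The share over other such pairs on the array was not taken, so this count is not a result about these genes. The pairs named next were chosen after their values were seen. U2AF1L4 starts 233 bases from PSENEN, which encodes a subunit of gamma-secretase and read 535 and 466 (-0.20), and PRPF31 starts 97 bases from TFPT, which read 137 and 141 (0.05). PRPF38A (-0.06) starts 179 bases from ORC1, an origin recognition protein that read 161 and 145 (-0.15), and PRPF4 (0.08) starts 86 bases from CDC26, which read 1333 and 1351 (0.02).

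The other proteins of the splicing machinery were described from 7 lists of 78 symbols, of which 70 had a probe set of 1 symbol and all 70 were detected. Their median was -0.029, with 41 below 0 (58.6%, against 45% of all detected genes). On brightest probe sets 1 was at least 1.2-fold higher, 2 at least 1.2-fold lower and 0 at 1.5-fold. Of all detected genes, 6.86% were at least 1.2-fold higher, 4.26% at least 1.2-fold lower and 0.634% at 1.5-fold. The gene at least 1.2-fold higher was CDC5L, a core protein of the PRPF19 complex, at 975 and 1178 (0.27), with 4 of 4 probe sets between 0.06 and 0.27. SART1, a tri-snRNP protein, read 217 and 179 (-0.28), but its second probe set differed by 0.03. RBM22, which helps shape the catalytic RNA, read 840 and 698 (-0.27), with probe sets from -0.37 to 0.04. TXNL4A, a U5 protein named after its values were seen, read 2197 and 2251 (0.04) on its brightest probe set. Its dimmer detected probe sets read 152 and 88.0 (-0.78) and 96.6 and 76.8 (-0.33).

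By list, the 7 snRNP proteins named SNRNP had a median of -0.038, with the U5 helicase SNRNP200 lowest at 212 and 185 (-0.20), and the 16 other tri-snRNP proteins and helicases of 0.0021. It was -0.023 for 10 U2-associated proteins and -0.063 for 17 genes of the PRPF19 complex and related factors. The 5 minor spliceosome proteins, which act on the rare U12-type introns, had the highest median, 0.095, with 4 of 5 above 0 and ZRSR2 at 252 and 273. The 12 genes of the SMN complex, which loads Sm rings onto snRNA, and of the methylosome had a median of -0.050. Of these 12, 9 were below 0, and WDR77 of the methylosome read 950 and 794 (-0.26). The 3 detected exon junction genes had a median of 0.034. In each list the genes spread to both sides of 0.

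**Figure D4:**
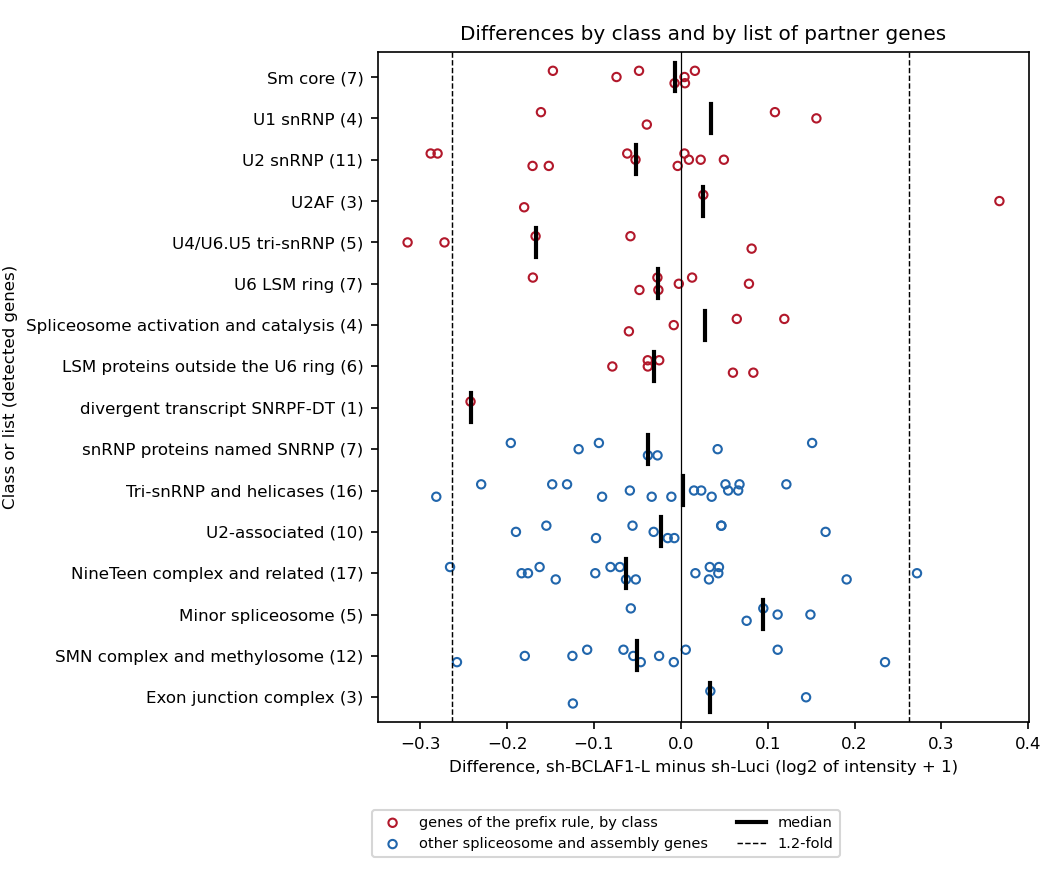
Differences (log2 of intensity + 1, sh-BCLAF1-L minus sh-Luci) of detected genes by class of core spliceosome genes (red) and by list of other splicing and assembly genes (blue); black bars are medians, dashed lines 1.2-fold and numbers the genes in each row. The tri-snRNP class has the lowest median of the classes with several genes (-0.17) and the minor spliceosome list the highest of the lists (0.095).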

How the data were processed

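The authors deposited linear probe set intensities for 2 arrays, and the submitters' processing notes name RMA, which subtracts background, gives the arrays one distribution of values and combines the probes of a set into 1 value. Program, version and scaling: not given in the sources used here. The deposited values did not share exactly one distribution. Their medians were 82.7 on the sh-Luci array and 84.5 on the sh-BCLAF1-L array, and their highest values 17349 and 16650. As the scaling is not known, a shift of most genes may still not show. Of 54675 probe sets, 41097 had 1 gene symbol in the annotation used, 1801 several and 11777 none, and 41043 matched a RefSeq gene table (GRCh38.p14) by Entrez identifier, as did all 49 genes described. Differences were taken on log2(intensity + 1) with pandas 2.3.3 in Python 3.11.15, and genes were called detected at the 40th percentile of all probe sets. Genes with values were those past 1.2-fold, the highest, lowest and brightest of each class, and those with opposed probe sets. Other genes were named after seeing their values. The members and lists were chosen with earlier results of these data known. The counting was also run on simulated data with known differences and independent noise on each probe set. Those data held no difference between whole arrays or cultures, so that run checked the code only. The number of arrays limits the precision.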

Additional observations from a re-analysis of the deposited data

How the results depend on the processing

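No paired analysis was possible because there was 1 array for each hairpin, which also left no replicate to omit. Tried instead of the main settings were a gene's median over its probe sets, only probe sets not named _s_at or _x_at, no filter or one at the 60th percentile, centring on the median difference (0.026) or a loess curve (span 0.3), and a pseudocount of 32. No core spliceosome gene reached 1.5-fold and 1 was at least 1.2-fold higher under each of these 7. The count at least 1.2-fold lower was 0 instead of 4 without _s_at and _x_at probe sets, where those 4 genes had no detected probe set left, and 4 or 5 otherwise. With the median over probe sets LSM4 replaced SNRPA1 among the 4. The median of the core genes was -0.0024 without _s_at and _x_at probe sets and -0.052 after subtraction of the median difference, by construction, and lay between -0.037 and -0.026 otherwise. Genes below 0 numbered 37 of 48 after that subtraction, against 52.0% of all detected genes. With the loess curve they numbered 31 of 48, against 49.0%. With the median over probe sets they numbered 29 of 48, against 45.2%. Without _s_at and _x_at probe sets they numbered 18 of 35, against 44.9%.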
